A study of Homo sapiens with 27 samples.

Results

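The genes described here are 10 components of macroautophagy: 3 cargo receptors (SQSTM1, NBR1 and OPTN), 4 members of the ATG8 family (MAP1LC3B, GABARAP, GABARAPL1 and GABARAPL2) and 3 genes of the initiation and early membrane steps (ULK1, BECN1 and WIPI1). They were taken by symbol from the 60534 gene IDs that every library lists. The choice was made with earlier results of these data known, so counts of members called describe the set and do not test it. All 10 were found and all 10 passed the filter on low counts in both RNA-seq and ribosome profiling. Their identifiers are ENSG00000161011 (SQSTM1), ENSG00000188554 (NBR1), ENSG00000123240 (OPTN), ENSG00000140941 (MAP1LC3B), ENSG00000170296 (GABARAP), ENSG00000139112 (GABARAPL1), ENSG00000034713 (GABARAPL2), ENSG00000177169 (ULK1), ENSG00000126581 (BECN1) and ENSG00000070540 (WIPI1).

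Macroautophagy encloses part of the cytoplasm in a double membrane, the autophagosome, and delivers it to the lysosome. The ULK1 kinase starts the process, BECN1 belongs to the lipid kinase complex that marks the growing membrane, and WIPI1 binds that lipid mark. ATG8 proteins are then joined to a membrane lipid, and receptors such as SQSTM1 (p62), NBR1 and OPTN bind ubiquitin-tagged cargo with a further contact to ATG8 proteins, so that the receptors are themselves degraded with the cargo. Counts of mRNA and of ribosome footprints measure neither ATG8 lipidation nor the flow of cargo to the lysosome.

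The cells were IMR90, an established line of normal human fetal lung fibroblasts, and all 27 libraries came from it. The cycling state (2 RNA-seq and 3 Ribo-seq libraries) was harvested at 40 to 60% confluency, and the quiescent state (3 and 3) was reached by contact inhibition. One senescent state (3 and 3) followed 15 Gy of ionizing radiation with harvest 10 days later, and the other (3 and 3) followed 3 treatments with 50 µM etoposide, a topoisomerase II poison, over 10 days. The last state (2 and 2) was cycling cells given 25 nM thapsigargin, an inhibitor of the calcium pump of the endoplasmic reticulum, for 3 h. The labels give a wild-type genotype and do not say that replicates were separate cultures, so the p-values measure the spread between these libraries, which may be technical.

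RNA-seq libraries held 20635503 to 57119841 gene counts and Ribo-seq libraries 1936976 to 19996104, the lowest being those of thapsigargin. Fibroblast markers summed to at least 9895 counts per 1000000 gene counts after scaling by the trimmed mean of M values (TMM), called CPM here, in RNA-seq and 13468 in Ribo-seq, while endothelial and immune markers summed to at most 2.64 in any library. Epithelial markers summed to 2.52 to 97.1 CPM in RNA-seq, almost wholly from KRT19, which averaged 18.6 CPM in cycling and 92.6 CPM in thapsigargin. In Ribo-seq they summed to 5.58 to 153 CPM, and KRT19 averaged 32.8 CPM in cycling and 152 CPM in thapsigargin. Over the 13 RNA-seq libraries the other epithelial markers had 166 counts (EPCAM), 33 (CDH1, of which 29 after etoposide), 6 (SFTPB), 2 (SFTPC) and 1 (KRT5), and EPCAM averaged 0.556 CPM in cycling and 0.731 in thapsigargin. The thapsigargin libraries stood apart in their make-up: 1.35 to 1.40% of their RNA-seq reads were unmapped against 27.8 to 40.6% elsewhere, and 65.2 to 66.9% of their Ribo-seq reads mapped to several places against 19.8 to 31.9%. Treatment and library preparation cannot be told apart in that comparison, and the part of these differences and of KRT19 in the thapsigargin results was not tested. Outside that comparison and the likeness of patterns, those libraries enter through shared scaling and spread. They also enter through the filter on low counts and the choice of gene IDs that every library lists.

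Most of the 10 genes had more mRNA in both senescent states than in cycling cells. After irradiation 8 of 10 members were higher than in cycling cells by edgeR's quasi-likelihood test at an adjusted p under 0.05, and 0 were lower, where 34.9% of the 13293 genes tested were called and 16.2% were higher. After etoposide 7 of 10 were higher and 0 lower (background 34.6% called, 16.8% higher). In quiescence 4 of 10 were higher and 0 lower (background 15.6% called, 5.18% higher). Under thapsigargin 4 rose and 2 fell (background 24.5% called, 11.7% higher and 12.8% lower). The members' median log2 fold change was 0.79 after irradiation, 0.60 after etoposide, 0.59 in quiescence and 0.44 under thapsigargin, against medians between -0.03 and 0.03 over all genes tested.

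Ribosome footprints gave counts of the same order. All 10 members were higher after irradiation (background 40.5% of 11766 genes called, 19.0% higher), 8 of 10 after etoposide (33.9% called, 16.8% higher) and 7 of 10 in quiescence (22.4% called, 8.15% higher). Thapsigargin gave 3 higher and 2 lower (44.6% called, 21.1% higher and 23.6% lower). The median log2 fold changes were 0.91, 0.72, 0.45 and 0.12 in the same order, against -0.08 to 0.04 over all genes. These 4 comparisons share the cycling libraries, so their values are set side by side and are not independent of each other. In bulk libraries, a change in the RNA of each cell and a change in the share of cells that carry the RNA cannot be told apart.

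Fits of the compared groups alone called fewer members and fewer genes in quiescence and under thapsigargin. They called 2 members in quiescent RNA, 3 in quiescent Ribo-seq and 2 in thapsigargin RNA, where 5.98%, 15.8% and 11.7% of all genes were called. The calls lost there were SQSTM1 and OPTN in quiescent mRNA, GABARAPL2, NBR1, ULK1 and WIPI1 in quiescent footprints, NBR1, OPTN, BECN1 and WIPI1 in thapsigargin mRNA, and NBR1 in thapsigargin footprints (adjusted p = 0.0551 to 0.221). After irradiation and etoposide the same kind of fit called more genes, 51.2% and 45.7% in RNA and 52.9% and 51.8% in Ribo-seq, with 9 and 7 members in RNA and 10 and 10 in Ribo-seq. Without cycling RNA replicate 1, and likewise without replicate 2, edgeR called 2 members in quiescent RNA (background 5.38% and 6.71%) and 3 in thapsigargin RNA (13.1% and 12.1%), and without cycling Ribo-seq replicate 3 it called 4 in quiescent Ribo-seq (13.2%).

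**Figure D1:**
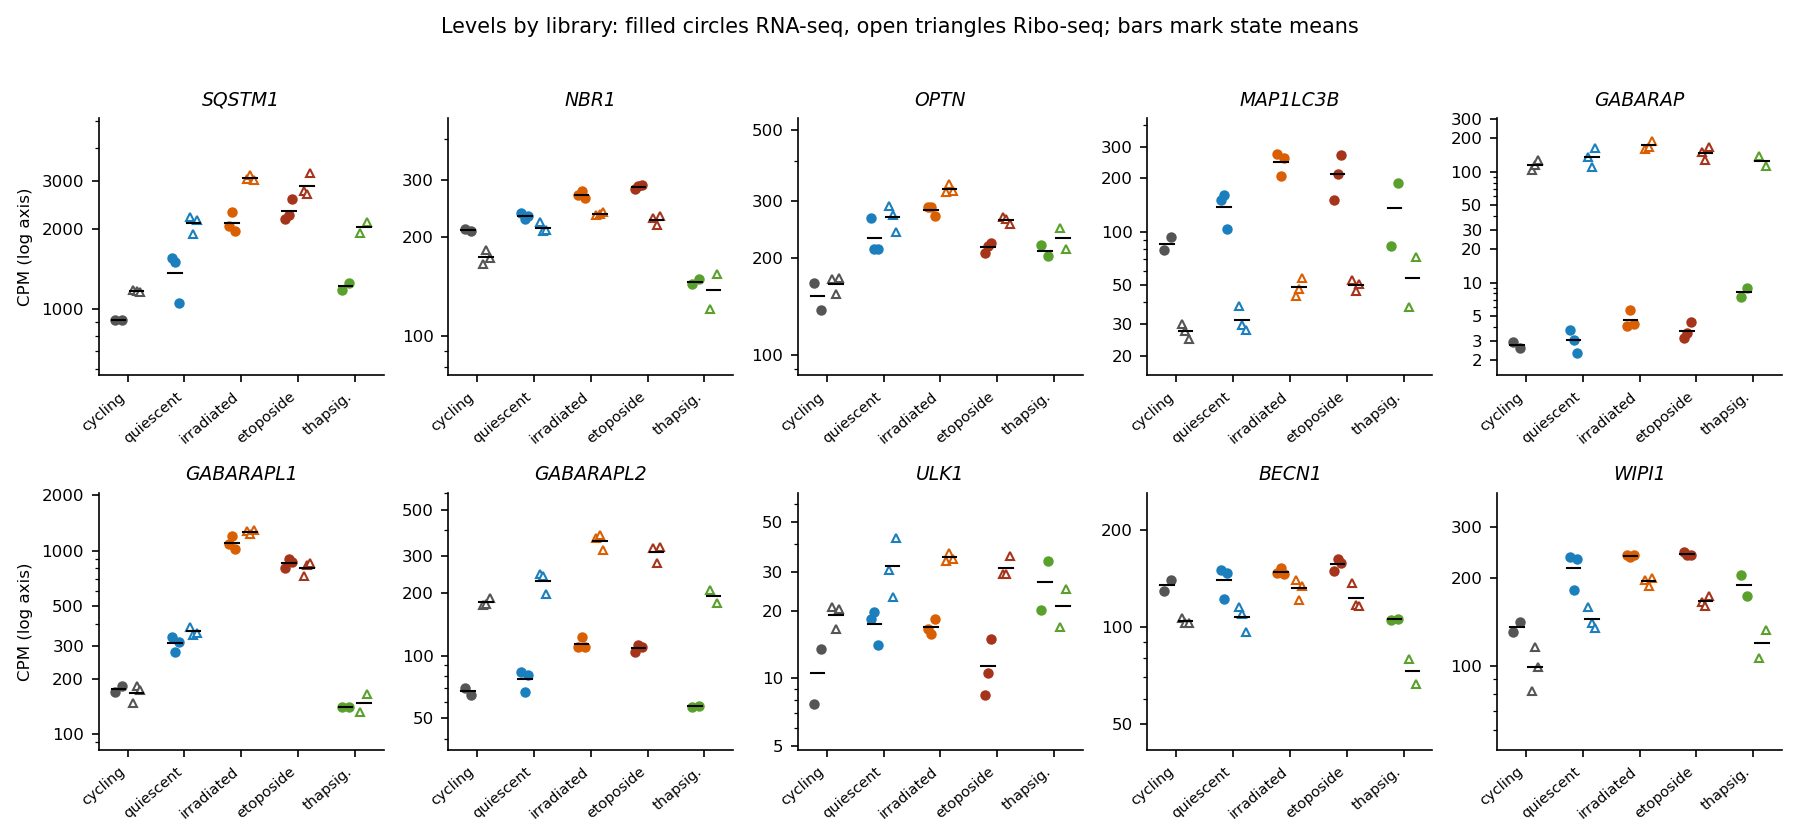
CPM (log axis) of the 10 genes in each library of the 5 states, with RNA-seq as circles, Ribo-seq as triangles and bars at the state means. GABARAPL1, SQSTM1, GABARAPL2 and WIPI1 separate the senescent libraries from all cycling and quiescent ones in both assays, while the BECN1 states lie close together. The share of all genes that do so was not counted. For WIPI1 mRNA the margin was small, from 236 CPM in the highest quiescent library to 237 in the lowest irradiated one.

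GABARAPL1, an ATG8 protein of the GABARAP branch, changed most of the 10. Its RNA-seq levels by library were 168 and 183 CPM in cycling cells, 337, 281 and 317 in quiescence, 1086, 1207 and 1019 after irradiation and 808, 896 and 864 after etoposide. Under thapsigargin they were 139.7 and 139.6 CPM. The order was thus thapsigargin, cycling, quiescent, etoposide, irradiated, with no overlap of libraries between any neighbours in it. In Ribo-seq the levels were 147, 183 and 173 CPM in cycling, 385, 348 and 357 in quiescence, 1272, 1228 and 1291 after irradiation and 727, 834 and 859 after etoposide, again with no overlap, whereas the thapsigargin libraries at 131 and 164 overlapped cycling.

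Against cycling cells, GABARAPL1 mRNA rose by a log2 fold change (± SE) of 2.65 ± 0.13 (adjusted p = 3.13e-08) after irradiation, which is 6.29-fold (95% confidence interval 5.20 to 7.61). After etoposide it rose by 2.29 ± 0.13 (adjusted p = 2.53e-08) and in quiescence by 0.83 ± 0.12 (adjusted p = 0.000856), and under thapsigargin it was -0.33 ± 0.13 (adjusted p = 0.0736). Its footprints rose by 2.91 ± 0.11 (adjusted p = 6.88e-10), 2.27 ± 0.11 (adjusted p = 2.42e-09) and 1.11 ± 0.11 (adjusted p = 7.46e-05) in the first 3 of these states. Both assays therefore placed quiescence between cycling and senescence for this gene, and the difference of the senescent mean from quiescence was itself past the threshold, at 1.64 ± 0.10 (adjusted p = 6.33e-08) in mRNA and 1.48 ± 0.10 (adjusted p = 1.03e-07) in footprints. These 8 calls were made in every alternative, and the irradiated mRNA value ran from 2.59 to 2.71.

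GABARAPL1 lies on chromosome 12 at 10212877 to 10223128 of GRCh38.p14, plus strand. Its promoter is shown because this gene carried the largest change. The 250 bases before the RefSeq start, chr12:10212627-10212876 on the plus strand, hold a palindrome, in capitals, that is the full cyclic AMP response element, TGACGTCA. It lies 30 to 23 bases before the start. The sequence, from RefSeq, reads:
GABARAPL1: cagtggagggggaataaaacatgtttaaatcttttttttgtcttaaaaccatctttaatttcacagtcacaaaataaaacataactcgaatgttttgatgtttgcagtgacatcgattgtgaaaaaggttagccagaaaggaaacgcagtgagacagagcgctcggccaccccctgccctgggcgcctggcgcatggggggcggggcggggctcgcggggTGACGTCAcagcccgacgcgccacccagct
Of 35116 RefSeq promoters of this length, 578 (1.65%) hold TGACGTCA on either strand. It was added to the search after the promoters had been read, and a match is a description of letters and not a binding site.

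MAP1LC3B encodes LC3B, the ATG8 protein most used to mark autophagosomes, and lies on chromosome 16 at 87392336 to 87404774, plus strand. Its mRNA levels were 78.5 and 92.7 CPM in cycling, 152, 159.7 and 103 in quiescence, 272, 206 and 259.6 after irradiation and 151, 211 and 268 after etoposide. The senescent libraries all lay above the cycling ones, with a wide spread within each state. The mRNA rose by 1.52 ± 0.32 (adjusted p = 0.00244) after irradiation and by 1.30 ± 0.32 (adjusted p = 0.00665) after etoposide, and the quiescent value was 0.69 ± 0.31 (adjusted p = 0.164). Without cycling RNA replicate 1 the etoposide value was 1.18 (adjusted p = 0.0752). The thapsigargin libraries read 82.7 and 188 CPM, the first within and the second above the cycling range, giving 0.66 ± 0.34 (adjusted p = 0.172), or 1.14 (adjusted p = 0.0151) without thapsigargin RNA replicate 1 and -0.03 (adjusted p = 0.956) without replicate 2.

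The promoter of MAP1LC3B, chr16:87392086-87392335 on the plus strand, is shown because it was the only one of the 14 promoters of the members to match any of the 3 motifs searched first on both strands. Those were CACGTG, the core of the element bound by TFEB and its relatives, TGACNNNGC, the core of the antioxidant response element, and TGATGNAA, the core of the composite element bound by ATF4 and CHOP. The match to TGACNNNGC is in capitals and lies 46 to 38 bases before the start:
MAP1LC3B: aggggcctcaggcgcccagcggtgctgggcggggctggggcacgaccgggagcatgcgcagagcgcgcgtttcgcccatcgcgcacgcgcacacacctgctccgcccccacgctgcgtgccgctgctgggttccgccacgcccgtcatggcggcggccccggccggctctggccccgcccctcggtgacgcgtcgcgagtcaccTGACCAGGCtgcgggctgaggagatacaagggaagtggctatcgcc
TGACNNNGC is in 3830 of the 35116 promoters (10.9%), CACGTG in 6.34% and TGATGNAA in 3.14%. That CACGTG and TGATGNAA are in 0 of the members' 14 promoters says only that those letters are absent from these windows.

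MAP1LC3B footprints on the gene's own strand were sparse, at 30.2, 27.6 and 24.9 CPM in cycling, 38.2, 29.8 and 27.9 in quiescence, 43.6, 47.5 and 54.8 after irradiation and 53.4, 46.2 and 50.6 after etoposide. They rose by 0.82 ± 0.20 (adjusted p = 0.00487) and 0.86 ± 0.19 (adjusted p = 0.00367) in the senescent states. Reads that match MAP1LC3B and its near-identical copy MAP1LC3B2 equally are in no gene's count, and their part in these levels was not tested. In RNA-seq libraries at most 0.232% of the reads over MAP1LC3B lay on the opposite strand. In cycling Ribo-seq libraries 34.4 to 52.8% did so. The share was 51.3 to 73.9% in quiescence, 50.2 to 66.0% after irradiation, 17.7 to 45.9% after etoposide, and 81.7 and 92.5% in the thapsigargin libraries. The thapsigargin gene-strand levels were 37.8 and 71.9 CPM, from 69 and 137 counts, a rise of 1.00 ± 0.23 (adjusted p = 0.0034) that became 0.46 (adjusted p = 0.11) without thapsigargin Ribo-seq replicate 2 and 3.15 (adjusted p = 5.33e-07) when reads of both strands were counted. What gives the opposite-strand reads was not tested, and with both strands counted the quiescent value also moved, to 0.90 (adjusted p = 0.00775).

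**Figure D2:**
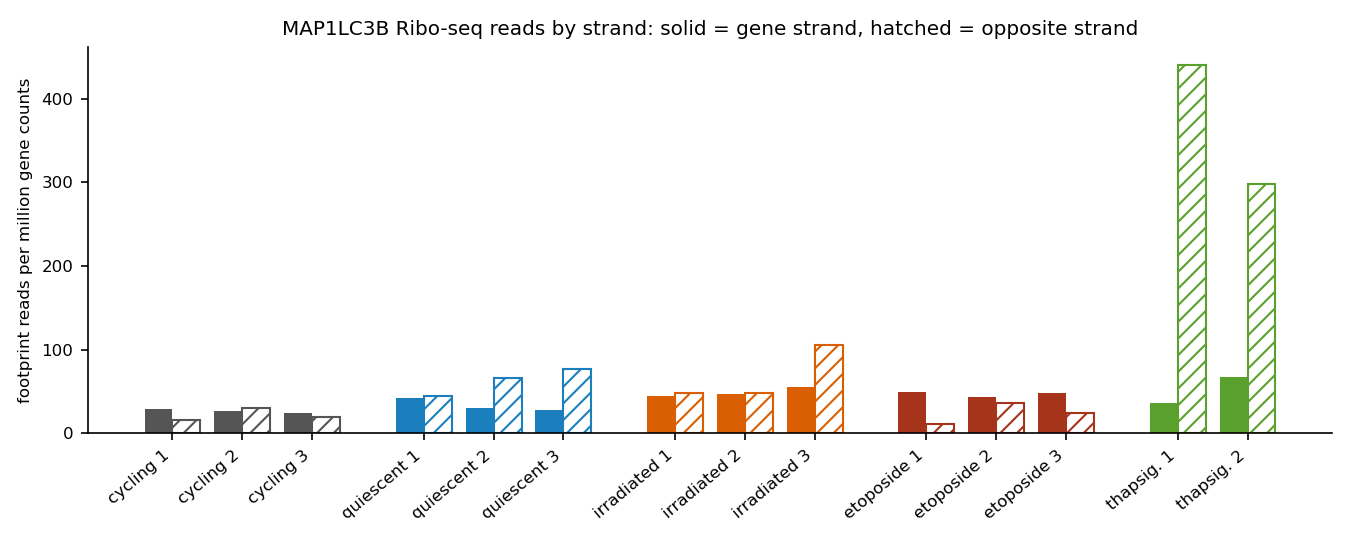
Ribo-seq reads per 1000000 gene counts, without TMM scaling, assigned to MAP1LC3B on the gene's own strand and on the opposite strand, for each library of the 5 states, as bars from 0. The thapsigargin libraries carry 439.9 and 298 on this scale on the opposite strand against 15.4 to 30.3 in cycling.

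GABARAPL2, the third ATG8 protein of the set, also called GATE-16, had a smaller and tighter change. Its mRNA read 69.9 and 64.7 CPM in cycling, 83.9, 67.2 and 80.4 in quiescence, 110.1, 123 and 109.6 after irradiation, 104, 112 and 110.2 after etoposide and 56.5 and 57.6 under thapsigargin. Every senescent library lay above every library of the other 3 states. The rise over cycling was 0.76 ± 0.12 (adjusted p = 0.000251) after irradiation and 0.69 ± 0.12 (adjusted p = 0.000514) after etoposide, and 0.98 ± 0.11 and 0.80 ± 0.11 in footprints (adjusted p = 1.62e-05 and 8.79e-05). In Ribo-seq the levels were 176, 176 and 188 CPM in cycling, 248, 242 and 197 in quiescence, 366, 378 and 321 after irradiation, 328, 278 and 332 after etoposide and 208 and 178 under thapsigargin. There too the senescent libraries lay above all others. Footprints also rose in quiescence by 0.35 ± 0.11 (adjusted p = 0.0372), which missed the threshold without any single cycling library or quiescent replicate 1 or 2 (adjusted p = 0.0688 to 0.176) and with both strands counted (adjusted p = 0.0515), and in mRNA the quiescent value was 0.20 ± 0.12 (adjusted p = 0.298). The thapsigargin values were -0.24 ± 0.13 (adjusted p = 0.192) in mRNA and 0.10 ± 0.13 (adjusted p = 0.545) in footprints.

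GABARAP, the founding member of its branch, was the least countable member in RNA-seq, with 50 to 509 counts a library against 214 to 3201 in Ribo-seq. It overlaps PHF23 on the same strand, and reads in the overlap belong to neither gene's count, so its RNA-seq and efficiency values are uncertain. Its mRNA read 2.92 and 2.59 CPM in cycling, 3.74, 3.02 and 2.34 in quiescence, 4.06, 5.63 and 4.24 after irradiation, 3.15, 3.54 and 4.37 after etoposide and 7.41 and 8.94 under thapsigargin. Only the quiescent libraries overlapped those of cycling. The thapsigargin rise was 1.56 ± 0.27 (adjusted p = 0.00102), and the irradiated one was 0.75 ± 0.25 (adjusted p = 0.0343). The latter was lost without cycling RNA replicate 1 (0.84, adjusted p = 0.112), cycling replicate 2 (0.67, adjusted p = 0.17) or irradiated replicate 2 (0.59, adjusted p = 0.12), and with the replicate number as a block (0.76, adjusted p = 0.0516). Both were lost when both strands were counted (adjusted p = 0.132 and 0.284), a count that keeps only 0 to 18.9% of the gene-strand reads. What removes the other reads from that count was not tested. The quiescent and etoposide values were 0.14 ± 0.25 (adjusted p = 0.784) and 0.42 ± 0.25 (adjusted p = 0.218).

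GABARAP footprints, at 104, 115 and 129 CPM in cycling, were 136, 110.3 and 164 in quiescence, 162, 166 and 191 after irradiation, 152, 127 and 167 after etoposide and 137 and 112 under thapsigargin. The irradiated libraries all lay above the cycling ones, and those of every other state overlapped them. The rise after irradiation was 0.58 ± 0.15 (adjusted p = 0.0077), or 0.47 (adjusted p = 0.0508) without irradiated Ribo-seq replicate 3, and -0.22 (adjusted p = 0.33) with both strands counted. The etoposide, quiescent and thapsigargin values were 0.36 ± 0.15, 0.24 ± 0.15 and 0.11 ± 0.18 (adjusted p = 0.0816, 0.286 and 0.64). The etoposide value passed with the replicate block and in a fit of the compared groups alone (adjusted p = 0.0225 and 0.016).

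SQSTM1, the receptor p62, changed most of the receptors and initiation genes in senescence. Its mRNA read 917 and 912 CPM in cycling, 1549, 1506 and 1061 in quiescence, 2047, 2307 and 1949.9 after irradiation, 2169.7, 2252 and 2576 after etoposide and 1179 and 1257 under thapsigargin. All other states lay above cycling and all senescent libraries above the quiescent ones, while the 2 senescent states overlapped. Its footprints read 1179.9, 1170.3 and 1166 CPM in cycling, 2202, 1914 and 2150.1 in quiescence, 3046, 3173 and 3029 after irradiation, 2752, 2692 and 3217 after etoposide and 1922 and 2116 under thapsigargin.

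Against cycling cells, SQSTM1 mRNA rose by 1.20 ± 0.16 (adjusted p = 7.36e-05) after irradiation and 1.35 ± 0.16 (adjusted p = 2.66e-05) after etoposide, and its footprints by 1.40 ± 0.08 (adjusted p = 4.06e-08) and 1.30 ± 0.08 (adjusted p = 5.61e-08). All 4 calls held in every alternative. In quiescence the footprints rose by 0.83 ± 0.08 (adjusted p = 9.55e-05), and the mRNA by 0.59 ± 0.16 (adjusted p = 0.0218). That mRNA call was lost without cycling RNA replicate 1 or 2 (adjusted p = 0.139 and 0.124) or quiescent replicate 1 or 2 (0.0601 and 0.0567).

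Under thapsigargin SQSTM1 footprints rose by 0.78 ± 0.09 (adjusted p = 2.34e-05), and its mRNA value was 0.41 ± 0.17 (adjusted p = 0.0921). SQSTM1 overlaps MGAT4B and MRNIP on the opposite strand, and the thapsigargin Ribo-seq counts follow another gene list than the other Ribo-seq libraries. When both strands were counted, which drops reads in those overlaps, 72.7 to 82.6% of the gene-strand count was kept in the other Ribo-seq libraries and 49.5 to 51.6% in those of thapsigargin, and the rise in footprints became 0.21 (adjusted p = 0.112). The part of the gene list in that difference was not tested.

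OPTN, optineurin, a receptor for mitochondria and bacteria tagged with ubiquitin, read 167 and 138 CPM in cycling mRNA, 267, 213 and 214 in quiescence, 289, 288 and 269.9 after irradiation, 207, 219 and 223 after etoposide and 219 and 202 under thapsigargin. Every library outside cycling lay above both cycling libraries. Its mRNA rose by 0.89 ± 0.13 (adjusted p = 0.000138) after irradiation, 0.60 ± 0.13 (adjusted p = 0.0065) in quiescence, 0.50 ± 0.13 (adjusted p = 0.00757) after etoposide and 0.47 ± 0.14 (adjusted p = 0.0239) under thapsigargin. The last 3 were lost without cycling RNA replicate 2 (0.47, 0.37 and 0.34, adjusted p = 0.0964, 0.114 and 0.212), and the thapsigargin call also without thapsigargin RNA replicate 1 (0.41, adjusted p = 0.0787).

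In Ribo-seq OPTN read 172, 154 and 173 CPM in cycling, 290.4, 272 and 241 in quiescence, 321, 341 and 324 after irradiation, 268, 265 and 254 after etoposide and 249 and 214 under thapsigargin. Here too no library of another state overlapped cycling. The footprints rose by 0.98 ± 0.09 (adjusted p = 2.99e-06) after irradiation, 0.69 ± 0.09 (adjusted p = 0.000392) in quiescence, 0.66 ± 0.09 (adjusted p = 9.34e-05) after etoposide and 0.47 ± 0.10 (adjusted p = 0.00264) under thapsigargin. None of these 4 calls was lost in any alternative. Footprints of OPTN thus rose in every state compared with cycling cells, which held for SQSTM1 and OPTN alone among the 10, in the case of SQSTM1 under thapsigargin only when the gene's own strand was counted.

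NBR1, a receptor related to SQSTM1 that also acts in clearing peroxisomes, moved in opposite directions in senescence and under thapsigargin. Its mRNA read 212 and 209 CPM in cycling, 237, 227 and 233 in quiescence, 270.1, 277 and 264 after irradiation, 281, 286 and 289.7 after etoposide and 144 and 149 under thapsigargin, with no overlap between any of these groups. It rose by 0.44 ± 0.09 (adjusted p = 0.002) after etoposide and 0.36 ± 0.09 (adjusted p = 0.00713) after irradiation and fell by 0.53 ± 0.10 under thapsigargin (adjusted p = 0.00184). The irradiated call was lost without cycling RNA replicate 1 (0.37, adjusted p = 0.0508) or 2 (0.35, adjusted p = 0.0617).

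NBR1 footprints read 166, 183 and 173 CPM in cycling, 223, 209 and 210.2 in quiescence, 234, 236 and 238 after irradiation and 229, 218 and 233 after etoposide, with all libraries of the last 3 states above cycling. They rose by 0.44 ± 0.09 (adjusted p = 0.00184) after irradiation, 0.38 ± 0.09 (adjusted p = 0.00546) after etoposide and 0.30 ± 0.09 (adjusted p = 0.0302) in quiescence. Under thapsigargin they read 121 and 155 CPM, both below the cycling libraries, a change of -0.33 ± 0.11 (adjusted p = 0.0219). That call was lost without thapsigargin Ribo-seq replicate 1 (-0.17, adjusted p = 0.213) or cycling Ribo-seq replicate 2 (-0.30, adjusted p = 0.0657) and was -0.52 (adjusted p = 0.00177) without thapsigargin replicate 2. The quiescent footprint call was lost without cycling Ribo-seq replicate 1 or 3 or any single quiescent library (adjusted p = 0.0543 to 0.157).

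WIPI1, the reader of phosphatidylinositol 3-phosphate on the forming autophagosome, read 131 and 141 CPM in cycling mRNA, 236, 182 and 234 in quiescence, 241, 237 and 240.2 after irradiation, 246, 241 and 241 after etoposide and 206 and 174 under thapsigargin. The senescent states overlapped each other and lay above all quiescent and cycling libraries, the lowest irradiated library only just above the highest quiescent one. The mRNA rose by 0.81 ± 0.13 (adjusted p = 0.00025), 0.83 ± 0.13 (adjusted p = 0.000198), 0.67 ± 0.13 (adjusted p = 0.00336) and 0.48 ± 0.14 (adjusted p = 0.0202) after irradiation, after etoposide, in quiescence and under thapsigargin. The quiescent call was lost without cycling RNA replicate 1 (0.62, adjusted p = 0.0552), and the thapsigargin call without cycling replicate 1, cycling replicate 2 or thapsigargin replicate 1 (adjusted p = 0.138, 0.0697 and 0.0896).

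WIPI1 footprints read 82.1, 116 and 99.3 CPM in cycling, 159, 139.8 and 135 in quiescence, 198, 188 and 201 after irradiation, 165, 160.1 and 174 after etoposide and 106 and 133 under thapsigargin. Irradiated libraries were highest, and only those of thapsigargin overlapped cycling. Footprints rose by 0.98 ± 0.13 (adjusted p = 4.18e-05), 0.75 ± 0.12 (adjusted p = 0.000371) and 0.55 ± 0.12 (adjusted p = 0.00653) after irradiation, after etoposide and in quiescence, and their thapsigargin value was 0.27 ± 0.14 (adjusted p = 0.143), or 0.40 (adjusted p = 0.0408) without cycling Ribo-seq replicate 2.

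BECN1, the Beclin 1 subunit of the class III lipid kinase complex, had the smallest footprint change of the 10 in both senescent states. Its mRNA read 129 and 139.9 CPM in cycling, 150.2, 122 and 147 in quiescence, 147, 152 and 146 after irradiation, 149, 163 and 158 after etoposide and 105 and 106 under thapsigargin. The senescent libraries all lay above the cycling ones, but the differences of 0.14 ± 0.11 (adjusted p = 0.351) and 0.22 ± 0.11 (adjusted p = 0.145) missed the threshold. Footprints after irradiation rose by 0.34 ± 0.11 (adjusted p = 0.0194), which missed the threshold without irradiated Ribo-seq replicate 1 or 3 or any single cycling Ribo-seq library (adjusted p = 0.0541 to 0.0875) and with no filter on low counts (0.26, adjusted p = 0.106). The quiescent values were 0.05 ± 0.11 (adjusted p = 0.802) in mRNA and 0.04 ± 0.10 (adjusted p = 0.825) in footprints, and the etoposide footprint value was 0.24 ± 0.10 (adjusted p = 0.091). That footprint value passed the test with DESeq2 and in a fit of the compared groups alone (adjusted p = 0.0307 and 0.0478), and the etoposide mRNA value did so with both strands counted (0.32, adjusted p = 0.0488). Its footprints read 107, 103 and 103 CPM in cycling, 115, 110.1 and 96.9 in quiescence, 140.3, 121 and 134 after irradiation, 137, 117 and 116 after etoposide and 79.4 and 66.7 under thapsigargin, where both libraries lay below all others. The thapsigargin footprints fell by 0.51 ± 0.13 (adjusted p = 0.00539). The mRNA change of -0.35 ± 0.12 (adjusted p = 0.0497) was at the threshold and passed the test in 1 of 10 alternatives, DESeq2 (adjusted p = 0.0269). It was lost without any 1 of the cycling or thapsigargin RNA-seq libraries (adjusted p = 0.102 to 0.243), and with relative log expression (RLE) scaling, the replicate block, no filter on low counts, both strands counted and the compared groups alone (adjusted p = 0.0592 to 0.221).

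ULK1, the kinase that starts autophagosome formation, was low and varied between replicates. Its mRNA read 7.67 and 13.5 CPM in cycling, 18.3, 19.8 and 14.1 in quiescence, 16.7, 15.7 and 18.4 after irradiation, 8.39, 10.6 and 15.0 after etoposide and 20.3 and 33.6 under thapsigargin. Only the etoposide libraries overlapped those of cycling. None of the quiescent, irradiated and etoposide mRNA differences passed the test (0.73 ± 0.30, 0.69 ± 0.30 and 0.11 ± 0.29, adjusted p = 0.121, 0.0898 and 0.804), although the irradiated one did without cycling RNA replicate 2 (1.14, adjusted p = 0.0378) and in a fit of the irradiated and cycling libraries alone (0.67, adjusted p = 0.0107). The thapsigargin rise of 1.36 ± 0.32 (adjusted p = 0.00776) was lost without cycling RNA replicate 1 (1.00, adjusted p = 0.0955) or thapsigargin RNA replicate 2 (0.97, adjusted p = 0.0635).

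ULK1 footprints read 20.8, 16.7 and 20.4 CPM in cycling, 30.5, 23.1 and 42.2 in quiescence, 33.5, 36.5 and 34.2 after irradiation, 29.1, 29.3 and 35.4 after etoposide and 17.0 and 25.2 under thapsigargin. They rose by 0.85 ± 0.21 (adjusted p = 0.00579) after irradiation, 0.70 ± 0.21 (adjusted p = 0.0186) after etoposide and 0.73 ± 0.20 (adjusted p = 0.0196) in quiescence. The etoposide call was lost without cycling Ribo-seq replicate 2 (0.60, adjusted p = 0.0788) or etoposide replicate 3 (0.59, adjusted p = 0.084). The quiescent call was lost without cycling replicate 2 or 3 (adjusted p = 0.0844 and 0.0519) or quiescent replicate 3 (0.45, adjusted p = 0.0871). The thapsigargin footprints of ULK1 rest on 31 and 48 counts, and their change was 0.13 ± 0.27 (adjusted p = 0.707).

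**Figure D3:**
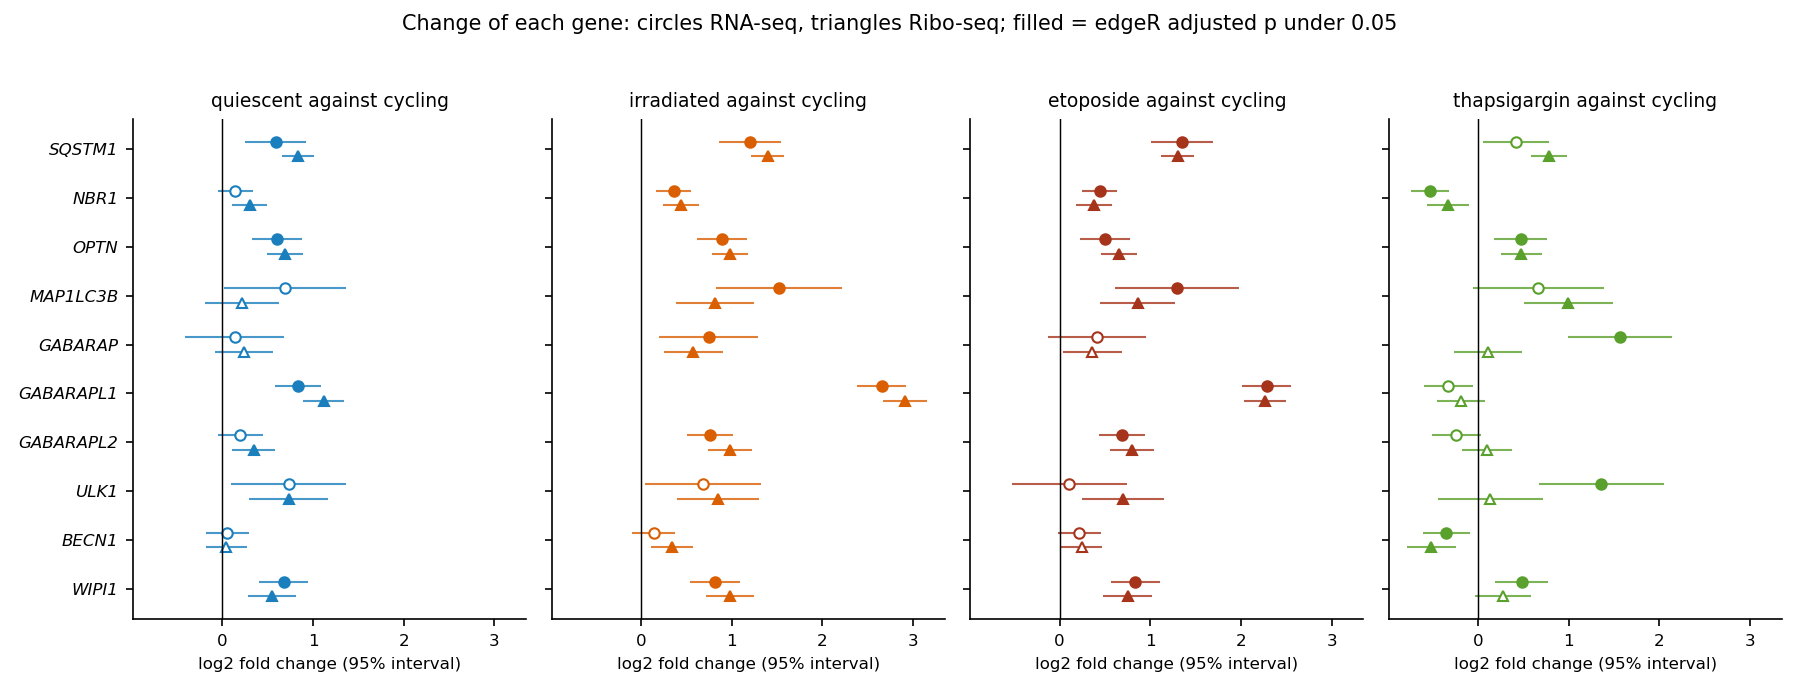
Log2 fold change against cycling cells of the 10 genes in RNA-seq and Ribo-seq for quiescence, irradiation, etoposide and thapsigargin, with 95% confidence intervals; filled points passed edgeR's test at an adjusted p under 0.05. GABARAPL1 lies farthest to the right in both senescent states, and only thapsigargin has called points below 0.

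Quiescent cells do not divide either, and the design sets the senescent states beside them. Against quiescence, the mean of both senescent states was higher in mRNA for 5 of 10 members and lower for 0 (background 34.2% called, 16.6% higher), and in footprints likewise for 5 and 0 (background 26.1% called, 12.5% higher), or 3 without quiescent Ribo-seq replicate 2. GABARAPL1, SQSTM1, GABARAPL2 and MAP1LC3B were called in both assays. SQSTM1 rose by 0.69 ± 0.12 (adjusted p = 0.00083) in mRNA and 0.51 ± 0.07 (adjusted p = 0.000182) in footprints, and GABARAPL2 by 0.53 ± 0.09 (adjusted p = 0.00067) and 0.54 ± 0.10 (adjusted p = 0.00116). NBR1 rose in mRNA by 0.26 ± 0.07 (adjusted p = 0.0119).

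GABARAP, OPTN, WIPI1, BECN1 and ULK1 did not pass this test in mRNA, at 0.45 ± 0.19, 0.09 ± 0.10, 0.15 ± 0.10, 0.13 ± 0.09 and -0.33 ± 0.22, with 95% confidence intervals of 0.03 to 0.86, -0.11 to 0.30, -0.06 to 0.36, -0.06 to 0.31 and -0.80 to 0.14. The MAP1LC3B calls, at 0.72 ± 0.24 (adjusted p = 0.0353) and 0.62 ± 0.17 (adjusted p = 0.0148), were fragile: the first was lost without quiescent RNA replicate 1 or 3, irradiated replicate 1 or 3, or etoposide replicate 2 or 3 (adjusted p = 0.0579 to 0.139) and with no filter on low counts (adjusted p = 0.0658), and the second without quiescent Ribo-seq replicate 2 (0.58, adjusted p = 0.0674) and with both strands counted (-0.01, adjusted p = 0.966). The WIPI1 footprint rise of 0.32 ± 0.11 (adjusted p = 0.0425) was lost without any 1 library of the 3 states but quiescent replicate 1 (adjusted p = 0.062 to 0.138), with no filter (0.24, adjusted p = 0.146) and with the replicate block (adjusted p = 0.0505). The BECN1 footprint value of 0.25 ± 0.09 (adjusted p = 0.058) passed the test with DESeq2, RLE scaling and the replicate block (adjusted p = 0.00939, 0.0399 and 0.031).

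The 2 ways of reaching senescence differed for GABARAPL1 and OPTN. Irradiated cells had more of both than etoposide-treated cells, so that 2 of 10 members were higher in mRNA (background 22.6% called, 9.67% higher) and the same 2 in footprints (background 22.5% called, 8.82% higher). The share of members called, 20%, was near that of all genes called in either direction. GABARAPL1 differed by 0.37 ± 0.10 (adjusted p = 0.02) in mRNA and 0.65 ± 0.10 (adjusted p = 0.00107) in footprints, and OPTN by 0.39 ± 0.11 (adjusted p = 0.0234) and 0.32 ± 0.09 (adjusted p = 0.0219). The footprint difference of GABARAPL1 held in every alternative. Its mRNA call was lost without irradiated RNA replicate 1 or 2 or etoposide replicate 1 or 3 (adjusted p = 0.0523 to 0.106). The OPTN calls were lost without irradiated replicate 1 or 2 or etoposide replicate 1 or 2 in mRNA (adjusted p = 0.0703 to 0.0891) and without any 1 library in footprints (adjusted p = 0.0569 to 0.101), the latter also with no filter on low counts (adjusted p = 0.0663). In a fit of these states alone, where 33.8% of genes were called, the ULK1 mRNA difference of 0.58 ± 0.26 (adjusted p = 0.129) passed as well (0.53, adjusted p = 0.035).

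No member's footprints departed from its mRNA past the threshold in the 3 states without thapsigargin. Translational efficiency, the footprints of a gene relative to its mRNA, tested as an interaction over all 27 libraries, was called for 0 of 10 members in quiescence, 0 after irradiation and 0 after etoposide (edgeR; background 0.00854%, 0.0512% and 0.0683% of 11715 genes). At an unadjusted p under 0.05 the counts were 1, 0 and 0, the 1 being GABARAPL1 in quiescence at 0.38, and DESeq2 called 0 in each. For GABARAPL1 the efficiency change was 0.35 ± 0.17 after irradiation and -0.07 ± 0.17 after etoposide (95% confidence intervals -0.01 to 0.70 and -0.43 to 0.28). For SQSTM1 it was 0.28 ± 0.19 and -0.10 ± 0.19 (-0.10 to 0.66 and -0.49 to 0.28). MAP1LC3B was lowest of the 10 in each of these states, at -0.37 ± 0.38, -0.62 ± 0.39 and -0.49 ± 0.38 in quiescence, irradiation and etoposide, and its irradiated value passed the test in a fit of the irradiated and cycling libraries alone (-0.76, adjusted p = 0.0115). That fit called 728 genes (6.21%) against 6 with all groups, and the fits of quiescence and etoposide alone with cycling called 0 and 29 (0.248%). The MAP1LC3B efficiency values are uncertain because reads that match its copy MAP1LC3B2 equally are in no gene's count.

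Under thapsigargin 2 of 10 members fell in efficiency and 0 rose, where 20.7% of genes were called and 12.9% were lower. GABARAP fell by 1.51 ± 0.30 (adjusted p = 0.00141) and ULK1 by 1.27 ± 0.44 (adjusted p = 0.04), both having more mRNA with no called change in footprints. The ULK1 call was lost without cycling RNA replicate 1 (-0.92, adjusted p = 0.191), thapsigargin RNA replicate 2 (-0.84, adjusted p = 0.209), thapsigargin Ribo-seq replicate 1 (-1.01, adjusted p = 0.17), or cycling Ribo-seq replicate 1 or 3 (adjusted p = 0.0669 and 0.0681). It was also lost with RLE scaling, with the replicate block and in a fit of the compared groups alone (adjusted p = 0.0544, 0.0635 and 0.121), so that it held in 7 of 15 alternatives. GABARAP was called in all 15, but its efficiency is uncertain because reads in its overlap with PHF23 are in no gene's count. Counting both strands kept 2.80 to 5.18% of its gene-strand reads in thapsigargin Ribo-seq, against 12.9 to 28.8% in the other Ribo-seq libraries. PHF23 lies on the same strand as GABARAP, so reads in that overlap are left out of either kind of count. What removes further reads when both strands are counted was not tested, nor was the part of the differing gene list. The efficiency changes of the other 8 members ranged from -0.26 (WIPI1) to 0.32 (SQSTM1, -0.11 to 0.74), against a median of -0.15 over all genes. The MAP1LC3B value of 0.29 ± 0.44 (adjusted p = 0.684) became 2.46 (adjusted p = 0.000273) with both strands counted.

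**Figure D4:**
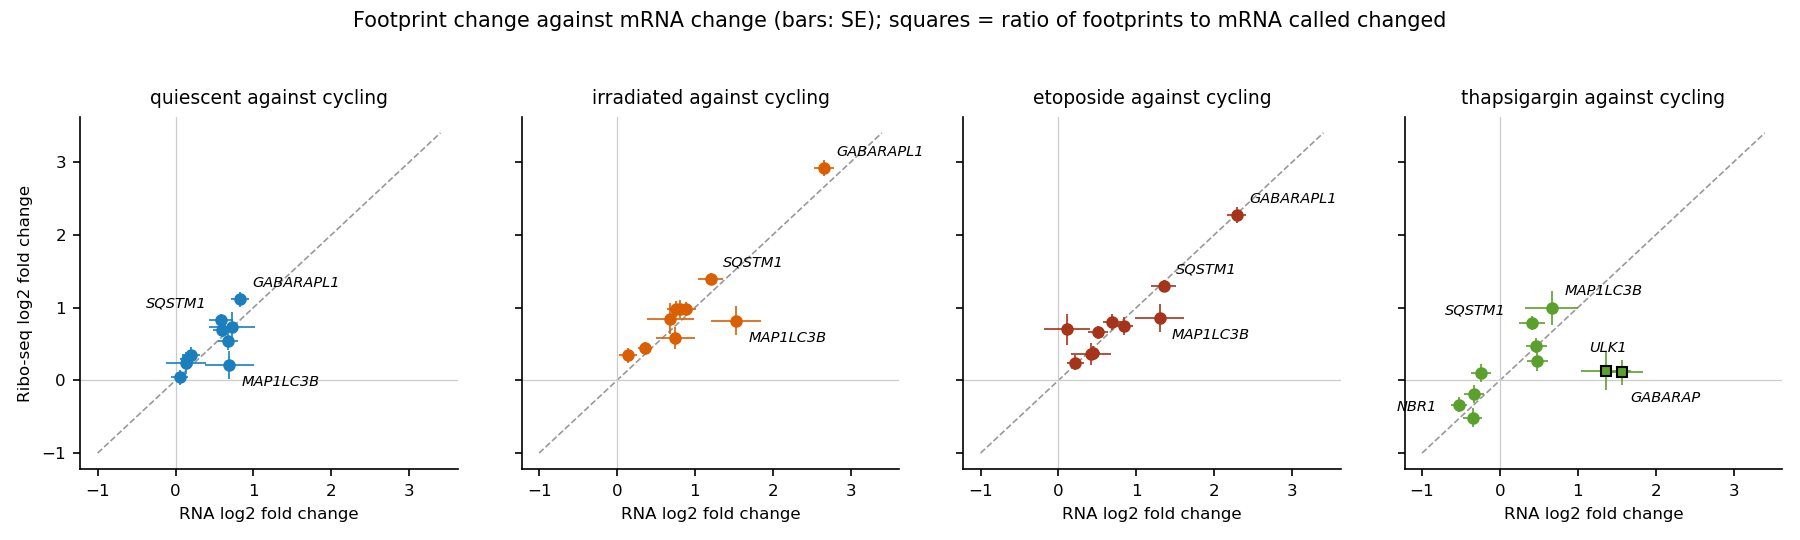
Log2 fold change in Ribo-seq (vertical) against RNA-seq (horizontal) for the 10 genes in each of the 4 states compared with cycling cells, with standard errors as bars and the diagonal of equal change; squares mark genes called for translational efficiency. The only squares are GABARAP and ULK1 under thapsigargin, and GABARAPL1 lies near the diagonal at its upper end in both senescent states.

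Of 63 further autophagy genes in 4 lists by function, 61 were tested in mRNA, and 8 transcription factors linked to autophagy made a list of their own. Among the 61, 22 were higher and 5 lower after irradiation, 16 and 2 after etoposide, 5 and 5 in quiescence, and 9 and 4 under thapsigargin, with median log2 fold changes of 0.37, 0.32, 0.19 and 0.08. In that order 44.3%, 29.5%, 16.4% and 21.3% of the 61 were called, where 34.9%, 34.6%, 15.6% and 24.5% of all genes were. In footprints, 59 were tested, of which 23 were higher and 7 lower after irradiation, 20 and 3 after etoposide, 10 and 7 in quiescence, and 18 and 10 under thapsigargin. These are 50.8%, 39.0%, 28.8% and 47.5% of the 59, where 40.5%, 33.9%, 22.4% and 44.6% of all genes were called. The members' own medians in mRNA were 0.79, 0.60, 0.59 and 0.44 in that order. Without cycling RNA replicate 1 the mRNA counts were 8 and 4 after irradiation, 5 and 2 after etoposide, 1 and 3 in quiescence, and 4 and 4 under thapsigargin, and without replicate 2 they were 8 and 1 after etoposide and 1 and 3 in quiescence. The share of all genes called fell there too, to 21.0%, 19.8%, 5.38% and 13.1% without replicate 1 and to 22.1% and 6.71% without replicate 2. In fits of the compared groups alone they were 26 and 6 after etoposide, 1 and 3 in quiescence, and 5 and 0 under thapsigargin, where 45.7%, 5.98% and 11.7% of all genes were called. The lists were drawn up with earlier results of these data known, so the counts describe them and do not test them.

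After irradiation 34.9% of all genes were called in mRNA and 16.2% were higher. Genes of autophagosome fusion with the lysosome were then higher for 6 of 10 and lower for 0 (60% called). The transcription factors were so for 5 and 0 of 8 (62.5%), and other initiation and membrane genes for 7 and 3 of 20 (50%). Other receptors were higher for 6 and lower for 2 of 17 (47.1%), and other ATG8 and conjugation genes for 3 and 0 of 14 (21.4%). In this last group MAP1LC3A, the gene of LC3A, rose from 12.7 to 31.8 CPM, a change of 1.33 ± 0.23 (adjusted p = 0.00052). Among receptors BNIP3L, a mitophagy receptor also called NIX, rose from 265 to 544 CPM (1.04 ± 0.13, adjusted p = 3.41e-05), while RTN3, a receptor of the tubular endoplasmic reticulum, fell (-0.82 ± 0.13, adjusted p = 0.000285). TMEM41B, a lipid scramblase needed for autophagosome formation, fell from 54.3 to 22.9 CPM (-1.25 ± 0.20, adjusted p = 0.000371), and ZFYVE1, a marker of the early membrane, rose (0.79 ± 0.19, adjusted p = 0.00576).

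VAMP8, a SNARE of autophagosome fusion, rose by 1.32 ± 0.39 (adjusted p = 0.019) after irradiation and 1.44 ± 0.39 (adjusted p = 0.0115) after etoposide, but from only 0.530 CPM. FOXO1, a transcription factor of autophagy genes, rose by 1.88 ± 0.61 (adjusted p = 0.0282) after irradiation, from 0.177 to 0.645 CPM. It was near the floor in cycling cells and can have passed the low-count filter through states where it is higher. Without cycling RNA replicate 1 the irradiated calls of VAMP8, ZFYVE1 and FOXO1 and the etoposide call of VAMP8 were lost (adjusted p = 0.18, 0.0626, 0.2 and 0.134). FOXO1 was also lost without cycling replicate 2 or irradiated replicate 1 or 3 (adjusted p = 0.0829, 0.0744 and 0.0771) and with the replicate block (0.0591).

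After etoposide the counts of higher and lower genes were 4 and 0 of 10 for fusion, 3 and 0 of 8 for transcription factors, 2 and 0 of 20 for initiation, 7 and 2 of 17 for receptors, and 3 and 0 of 14 for ATG8 and conjugation. The shares called were 40%, 37.5%, 10%, 52.9% and 21.4% in that order, where 34.6% of all genes were called and 16.8% were higher. MITF, a relative of TFEB that drives lysosomal genes, rose from 29.8 to 55.8 CPM (0.90 ± 0.15, adjusted p = 0.00046). MAP1LC3A rose by 0.93 ± 0.22 (adjusted p = 0.0056) and ZFYVE1 by 0.63 ± 0.19 (adjusted p = 0.0203), whereas PHB2, an inner mitochondrial membrane receptor, fell (-0.64 ± 0.12, adjusted p = 0.000889). RETREG1, a receptor of the endoplasmic reticulum also called FAM134B, rose by 2.36 ± 0.76 (adjusted p = 0.0281), from 5 counts in both cycling libraries together. With so few cycling counts it can have passed the low-count filter through states where it is higher. Without cycling RNA replicate 1, MAP1LC3A, ZFYVE1 and RETREG1 lost their calls (adjusted p = 0.0668, 0.139 and 0.223). ZFYVE1 lost it also without cycling replicate 2 or etoposide replicate 3 (adjusted p = 0.0757 and 0.0634), and RETREG1 without cycling replicate 2 or etoposide replicate 1 or 2 (adjusted p = 0.0702 to 0.0835).

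In quiescence the counts were 1 and 0 of 10 for fusion, 2 and 0 of 8 for transcription factors, 2 and 3 of 20 for initiation, 2 and 2 of 17 for receptors, and 0 of 14 for ATG8 and conjugation. The shares called were 10%, 25%, 25%, 23.5% and 0% in that order, where 15.6% of all genes were called and 5.18% were higher. TMEM41B and RTN3 fell here too (-1.08 ± 0.20, adjusted p = 0.00358 and -0.94 ± 0.13, adjusted p = 0.000787). VPS41, of the complex that tethers membranes to lysosomes, rose by 0.64 ± 0.12 (adjusted p = 0.0033), and DDIT3, the stress factor CHOP, by 0.77 ± 0.14 (adjusted p = 0.00263). CALCOCO1, a receptor for the endoplasmic reticulum and Golgi, rose by 0.62 ± 0.14 (adjusted p = 0.00797) and ZFYVE1 by 0.64 ± 0.19 (adjusted p = 0.0366). Both of these were lost without cycling RNA replicate 1 or 2 (adjusted p = 0.081 and 0.0615 for CALCOCO1, 0.235 and 0.128 for ZFYVE1), and ZFYVE1 also without quiescent replicate 1 or 2 (adjusted p = 0.0981 and 0.0692). In a fit of the compared groups alone CALCOCO1 and ZFYVE1 did not pass (adjusted p = 0.0629 and 0.0693).

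**Figure D5:**
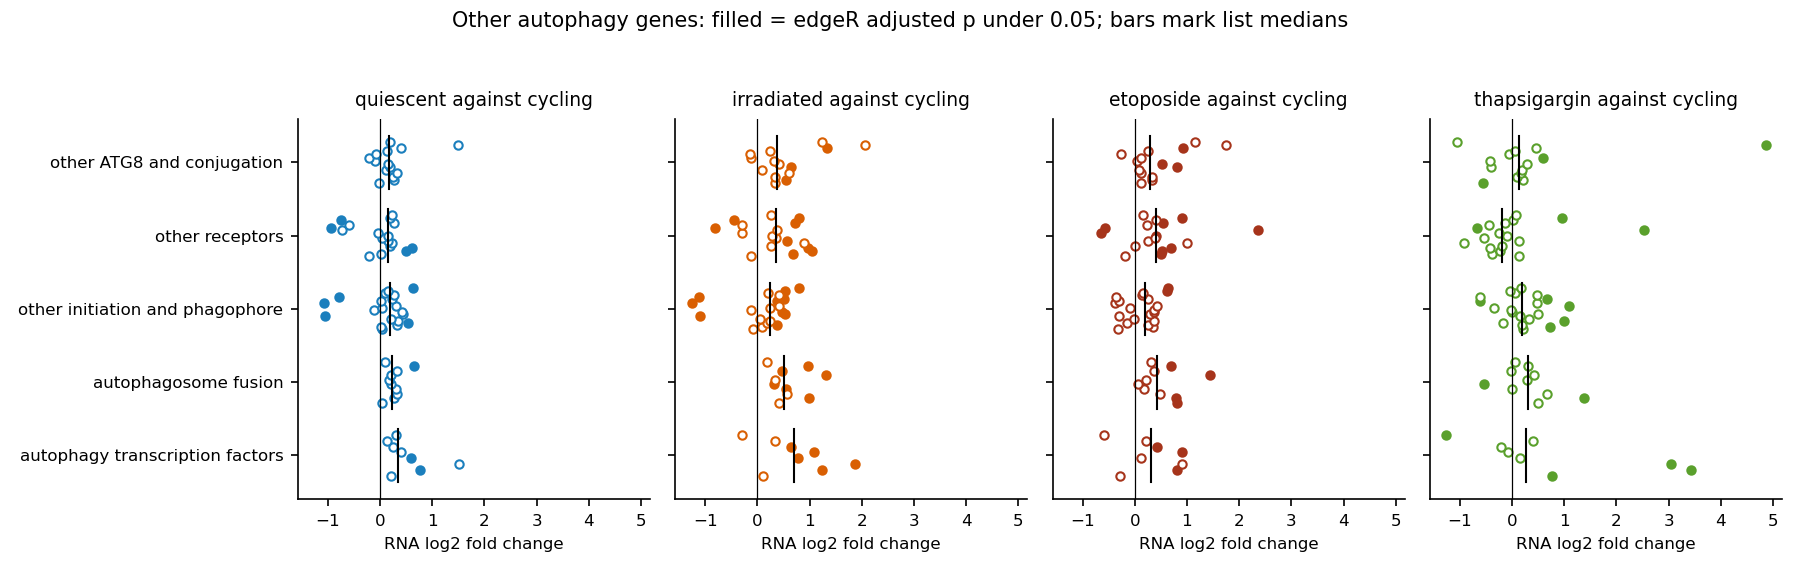
RNA-seq log2 fold change against cycling cells of the further autophagy genes and transcription factors, 1 point a gene, grouped by list and state, with list medians as bars. Medians of all lists lie above 0 after irradiation and etoposide, with individual genes on both sides.

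Under thapsigargin the counts were 1 and 1 of 10 for fusion, 3 and 1 of 8 for transcription factors, 4 and 1 of 20 for initiation, 2 and 1 of 17 for receptors, and 2 and 1 of 14 for ATG8 and conjugation. The shares called were 20%, 50%, 25%, 17.6% and 21.4% in that order. Of all genes 24.5% were called, 11.7% higher and 12.8% lower. DDIT3 had the highest rise of the transcription factors, from 40.6 to 439 CPM (3.44 ± 0.16, adjusted p = 6.29e-08). RUBCN, which encodes the inhibitor Rubicon, rose by 1.09 ± 0.19 (adjusted p = 0.00137) and PLEKHM1, an adaptor of lysosome fusion, by 1.37 ± 0.30 (adjusted p = 0.0057). STX17, the SNARE on the autophagosome, RTN3 and ULK2 fell (-0.54 ± 0.12, adjusted p = 0.00443, -0.67 ± 0.14, adjusted p = 0.00448 and -0.61 ± 0.15, adjusted p = 0.00911), as did ATG10, an enzyme of the conjugation system (-0.56 ± 0.16, adjusted p = 0.0213). TFEB, which activates lysosomal genes, fell by 1.27 ± 0.35 (adjusted p = 0.0191), from 4.52 to 1.85 CPM.

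Several of these thapsigargin calls rest on single libraries. PLEKHM1 was lost without cycling RNA replicate 1 (1.14, adjusted p = 0.0704) or thapsigargin replicate 2 (0.84, adjusted p = 0.0575). ULK2 and ATG10 were lost without cycling replicate 2 (adjusted p = 0.0728 and 0.17) or thapsigargin replicate 2 (0.0631 and 0.1). TFEB ranged from -0.73 (adjusted p = 0.0673) without thapsigargin replicate 1 to -2.19 (adjusted p = 0.000551) without replicate 2, and was lost without either cycling library (adjusted p = 0.09 and 0.0709). RETREG1 rose by 2.52 ± 0.77 (adjusted p = 0.0301), a call lost without cycling replicate 1 or 2 or thapsigargin replicate 2 (adjusted p = 0.223, 0.0858 and 0.0669) and with both strands counted (0.0695). This gene was near the floor in cycling cells and can have passed the low-count filter through other states. In a fit of the compared groups alone ATG10, RETREG1, RTN3, STX17, TFEB and ULK2 all lost their calls (adjusted p = 0.064 to 0.146).

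MAP1LC3B2 is a near-identical copy of MAP1LC3B whose reads can be assigned to either gene or to neither. It had 3 RNA-seq counts in the cycling libraries together and 211 in those of thapsigargin, a ratio of depth-scaled counts of 35.9 with an exact counting interval of 12.1 to 175. The interval covers counting error only, and the value is uncertain because reads that match both copies equally are in no gene's count. With 3 cycling counts, MAP1LC3B2 can have passed the low-count filter through states where it is higher.

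Against quiescence, 13 of the 61 further genes were higher in the mean of both senescent states and 2 lower in mRNA, which is 24.6% called where 34.2% of all genes were. VAMP8 rose by 1.17 ± 0.30 (adjusted p = 0.00801), MAP1LC3A by 0.72 ± 0.17 (adjusted p = 0.00575) and WIPI2, a relative of WIPI1, by 0.42 ± 0.09 (adjusted p = 0.00262). RETREG1 rose by 2.10 ± 0.72 (adjusted p = 0.0368), and PHB2 and ATG14, a subunit that brings the lipid kinase to the membrane, fell (-0.42 ± 0.09, adjusted p = 0.003 and -0.51 ± 0.10, adjusted p = 0.00178). Of the transcription factors, MITF rose by 0.60 ± 0.12 (adjusted p = 0.00153) and TFEB was lower (-0.74 ± 0.24, adjusted p = 0.0284). TFEB was lost without any single quiescent library, irradiated replicate 1 or 3 or etoposide replicate 1 (adjusted p = 0.0515 to 0.0744). RETREG1 was lost without quiescent replicate 1 or 3, any single irradiated library or etoposide replicate 1 or 2 (adjusted p = 0.0508 to 0.0976), with both strands counted and in a fit of the compared groups alone (adjusted p = 0.117 and 0.0517).

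Between the senescent states, 3 of the 61 were higher after irradiation and 6 after etoposide, which is 14.8% called where 22.6% of all genes were. In a fit of these states alone the counts were 7 and 10, where 33.8% of all genes were called. ULK2 and BNIP3L were higher after irradiation (0.68 ± 0.12, adjusted p = 0.00139 and 0.51 ± 0.11, adjusted p = 0.00484), as was the transcription factor FOXO3 (0.65 ± 0.10, adjusted p = 0.000534). TMEM41B and RETREG1 were lower (-0.87 ± 0.19, adjusted p = 0.00465 and -1.98 ± 0.60, adjusted p = 0.0309), the latter call being lost without any single irradiated library or etoposide replicate 1 or 2 (adjusted p = 0.0569 to 0.121).

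Each member's pattern over the 10 state means of both assays was compared with that of all 11715 genes tested in both, by the root mean square difference of centred log2 CPM. The nearest gene was ASPA for GABARAPL1 (0.16), PURA for MAP1LC3B (0.081), BNIP3 for GABARAPL2 (0.060) and VPS37C for GABARAP (0.14). It was RRM2B for SQSTM1 (0.11), XPC for NBR1 (0.047), SEPTIN11 for OPTN (0.089), FOXK1 for ULK1 (0.16), CHMP1B for BECN1 (0.051) and RAI14 for WIPI1 (0.091). Within the set the nearest pairs were NBR1 with BECN1 (0.122) and OPTN with WIPI1 (0.1245), whereas the member nearest to GABARAPL1, SQSTM1, was 0.81 away. The points share libraries and depth, so these distances describe likeness of pattern only.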

How the data were processed

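The deposited files hold raw counts of reads per gene for 27 libraries of IMR90 cells, with separate columns for both strands together and for either strand. Per the submitters' processing notes, the tools included bcl2fastq, STAR 2.7.10b and DESeq2 1.36.0, and the genome build was hg38; which step each served is not given in the sources used here. Cells were lysed with cycloheximide, and parts of each lysate went to stranded RNA-seq and to RNase I digestion for Ribo-seq, per the labels' protocols, which give differing digestion times in different places. Reads mapped to several places or overlapping several genes are in no gene's count.

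Counts on the gene's own strand were used, for the 60534 gene IDs shared by the 2 gene lists in the files (62703 and 60664 IDs). Symbols came from a gene name table, and 19310 IDs that matched a protein-coding gene of RefSeq GRCh38.p14 by symbol or synonym were kept. After edgeR's filter on low counts, 13293 genes were tested in RNA-seq, 11766 in Ribo-seq and 11715 for translational efficiency. That filter took all 5 states of an assay together, so a gene low in 1 state can have passed through another. edgeR 4.0.16 (R 4.3.3, limma 3.58.1) fitted all 5 states in 1 quasi-likelihood model per assay, with TMM scaling and no replicate block, and p-values were adjusted over all genes tested by Benjamini-Hochberg; a call is an adjusted p under 0.05. Efficiency was the interaction of assay and state. Standard errors are the fold change over the root of the F statistic. CPM are counts per 1000000 after TMM scaling. No transcript lengths were used, so levels are not compared between genes.

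The members and lists were chosen with earlier results of these data known. Named genes are the 10 members and, for each comparison, the gene of each other autophagy list with the highest and the one with the lowest called mRNA change. Alternatives were DESeq2 1.42.0, relative log expression (RLE) scaling, no filter, counts of both strands, a replicate block, the compared groups alone and leaving out each library. Leaving out the thapsigargin libraries was added after the data had been seen, and it kept the genes that had passed the filter with them. The code was tested on simulated data. Over 24 pairs of replicates, chi-square per degree of freedom was 1.85 to 147, so no pair agreed within sampling noise.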

Additional observations from a re-analysis of the deposited data

Results flagged for a closer look

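The 2 senescent states differed by edgeR's test of irradiated against etoposide libraries for GABARAPL1, by 0.37 on the log2 scale in mRNA and 0.65 in footprints, and for OPTN, by 0.39 in mRNA and 0.32 in footprints. For both genes irradiated cells had the higher level. These were 2 of 10 members (20%) in each assay, where 22.6% of all genes were called in mRNA and 22.5% in footprints. The share of members called was thus near that of all genes. The GABARAPL1 footprint call held in every alternative. Its mRNA call and both OPTN calls were lost in fits that left out single libraries. All irradiated libraries lay above all etoposide libraries for both genes in both assays.

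Reads on the strand opposite to MAP1LC3B are used only in the alternative that counts both strands. They made up at least 81.7% of its Ribo-seq reads in the thapsigargin libraries, above the highest cycling share of 52.8%. The source of these reads was not tested. With 2 or 3 libraries in each group, single libraries were not screened for outlying values.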

How the results depend on the processing

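Of 1852 values for single members under the alternatives, 1690 kept their direction and their side of the threshold, 110 lost the call, 19 gained it and 33 changed sign. The rises of GABARAPL1 and SQSTM1 mRNA and footprints in both senescent states, and over quiescence, held in every alternative. In fits of the compared groups alone, the count of members called was 2 in quiescent RNA, 2 in thapsigargin RNA and 3 in quiescent Ribo-seq, and for efficiency it was 1 under thapsigargin and 1 after irradiation. With no filter on low counts it was 1 in footprints of irradiated against etoposide cells, where 2260 genes were called in all against 2653 with the filter. For efficiency under thapsigargin it was 1 with RLE scaling and 1 with the replicate block, where 2430 and 2065 genes were called in all. Fits of the compared groups alone called fewer genes in all in quiescent RNA, quiescent Ribo-seq and thapsigargin RNA (795, 1857 and 1556 against 2068, 2631 and 3259) but more in irradiated RNA (6805 against 4643) and irradiated efficiency (728 against 6). In thapsigargin efficiency they called 1066 against 2430. The cause of these shifts was not tested.

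Leaving out each library in turn gave 2 to 4 members called in quiescent RNA, 3 to 4 in thapsigargin RNA, 0 to 2 in RNA of irradiated against etoposide cells, 4 to 5 in quiescent Ribo-seq, 3 to 6 in Ribo-seq of senescence against quiescence, 1 in each fit of Ribo-seq of irradiated against etoposide cells, and 1 to 2 for efficiency under thapsigargin. The counts for both senescent states against cycling ran from 6 to 7 (etoposide) and 6 to 8 (irradiated) in RNA and from 7 to 8 and 8 to 10 in Ribo-seq. All these counts are of members alone, without the share of all genes called in the same fits. They therefore do not show whether members lost calls more than other genes did. The share of all genes called also fell in quiescent and thapsigargin RNA without either cycling library.

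With both strands counted, GABARAP changed sign in mRNA of irradiated against etoposide cells (-0.057) and in footprints in quiescence (-0.27), after irradiation (-0.22), under thapsigargin (-2.56) and between the senescent states (-0.38). MAP1LC3B did so in footprints of senescence against quiescence (-0.014) and between the senescent states (0.60) and in quiescent efficiency (0.32), as did SQSTM1 in efficiency under thapsigargin (-0.20). The ULK1 footprint value against quiescence was -0.032 with no filter, and the OPTN efficiency under thapsigargin was 0.029 with DESeq2 and 0.028 with RLE scaling. None of these but GABARAP under thapsigargin passed the threshold, and the cause was not tested. For GABARAP, counting both strands kept 2.80 to 5.18% of the gene-strand Ribo-seq reads under thapsigargin, against 12.9 to 28.8% in the other states.

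Without single libraries, signs changed for values that did not pass the test in all data. In mRNA the ranges were -0.25 to 0.56 for ULK1 after etoposide, -0.0016 to 0.16 for BECN1 and -0.044 to 0.29 for GABARAP in quiescence, and -0.031 to 1.14 for MAP1LC3B under thapsigargin. In footprints they were -0.045 to 0.087 for BECN1 in quiescence, -0.14 to 0.30 for ULK1 against quiescence, -0.16 to 0.035 for MAP1LC3B between the senescent states, and, under thapsigargin, -0.044 to 0.25 for GABARAP, -0.012 to 0.21 for GABARAPL2 and -0.18 to 0.39 for ULK1. For efficiency they were -0.17 to 0.035 for GABARAPL1 after etoposide and, under thapsigargin, -0.094 to 0.26 for GABARAPL1, -0.27 to 1.02 for MAP1LC3B, -0.061 to 0.32 for NBR1 and -0.20 to 0.087 for OPTN.

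Without the filter the median log2 fold change of all genes moved to 0.155 in RNA after etoposide and 0.125 against quiescence, and to -0.227 in Ribo-seq and -0.298 in efficiency under thapsigargin; RLE scaling and DESeq2 moved it by less than 0.1. Whether the replicate numbers pair the samples across states was not settled. Correlations of deviations between same-numbered libraries ran from -0.187 to 0.474 in RNA across states, with 9 of 23 above 0.1 against 13 of 44 other pairs. In Ribo-seq they ran from -0.188 to 0.272, with 6 of 26 above 0.1 against 5 of 52 other pairs. The same-numbered cycling and quiescent Ribo-seq libraries gave 0.154, 0.272 and 0.264, where differently numbered ones gave -0.263 to 0.0585. Between RNA-seq and Ribo-seq of a state, for which parts of each lysate were used, 6 of 13 same-numbered pairs were above 0.1 (-0.0207 to 0.572), among them both cycling and all 3 etoposide pairs, against 2 of 24 other pairs. The efficiency test has no term for this. With a block of state and number, 0, 0, 0 and 1 of 10 members were called for efficiency, where 0, 3, 13 and 2065 of 11715 genes were. With the replicate as a block, the counts were 4, 7, 7 and 5 of 10 in RNA and 7, 10, 9 and 5 in Ribo-seq for quiescence, irradiation, etoposide and thapsigargin. In the same order these fits called 1835, 4503, 4393 and 3286 of all 13293 genes in RNA. In Ribo-seq they called 2715, 4826, 3991 and 5047 of 11766. Libraries of thapsigargin Ribo-seq, the shallowest, limit ULK1 and MAP1LC3B most.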
